A study of Mus musculus with 36 samples.

Results

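Serotonin is made in the brain by a small set of neurons in the raphe nuclei, and the largest of these, the dorsal raphe, lies in the ventral part of the periaqueductal grey (PAG), a midbrain centre of descending pain control. The 5 genes described here were chosen by symbol: Tph2, Slc6a4, Fev, Slc18a2 and Gch1. All 5 were found among the 31554 genes of the deposited expression table, and each was followed through all 36 libraries. The libraries came from adult male C57BL/6 mice that had received, 2.5 months earlier, either a sham operation or a spared nerve injury (SNI) of the sciatic nerve, an operation that leaves rodents with lasting pain. Brain tissue was PAG, prefrontal cortex (PFC) or nucleus accumbens (NAc), with 6 sham and 6 SNI libraries of each. No transgene or drug is named for any group, and sham animals carried the surgery without the nerve injury. Libraries were made from pooled RNA with no mouse numbers in the labels, so p-values measure the spread between libraries, which may be technical. Libraries are named by the number in their titles: PAG sham 25 to 30 and PAG SNI 31 to 36.

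A serotonin neuron hydroxylates tryptophan with tryptophan hydroxylase, using tetrahydrobiopterin as the cofactor, decarboxylates the product to serotonin, and packs serotonin into vesicles. After release, a transporter in the cell membrane takes serotonin back up. Tph2 encodes the brain form of tryptophan hydroxylase and Gch1 the enzyme that opens tetrahydrobiopterin synthesis. Slc18a2 encodes VMAT2, the vesicular transporter that all monoamine neurons share, and Slc6a4 the serotonin uptake transporter. Fev, also called Pet-1, encodes an ETS family transcription factor that serotonin neurons need to switch on their transmitter genes. In the midbrain, Slc18a2 and Gch1 are also used by dopamine neurons.

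In the mm10 genome with GENCODE M21 annotation, Tph2 (ENSMUSG00000006764) spans chr10:115078641-115185022 on the minus strand and Slc6a4 (ENSMUSG00000020838) spans chr11:76998603-77032340 on the plus strand. Fev (ENSMUSG00000055197) spans chr1:74881509-74885419 on the minus strand. Slc18a2 (ENSMUSG00000025094) spans chr19:59260896-59296012 on the plus strand, and Gch1 (ENSMUSG00000037580) spans chr14:47153895-47189413 on the minus strand. Because ETS factors bind sites built on the letters GGAA, and GATA factors sites such as GATAAG, the 250 bases before the RefSeq start of each gene (GRCm38.p6, the same assembly) were searched on both strands for GGAA, for its longer forms CGGAAG and AGGAAG, and for GATAAG. Each longer ETS form contains a GGAA, so those counts overlap. The promoters of Tph2, the gene of highest level, of Fev, the ETS gene itself, and of Slc6a4 are shown 5′ to 3′ on the strand of the gene, with an AGGAAG or GATAAG match in capitals. Their windows are chr10:115185023-115185272 (minus strand), chr1:74885409-74885658 (minus strand) and chr11:76998347-76998596 (plus strand).
Tph2: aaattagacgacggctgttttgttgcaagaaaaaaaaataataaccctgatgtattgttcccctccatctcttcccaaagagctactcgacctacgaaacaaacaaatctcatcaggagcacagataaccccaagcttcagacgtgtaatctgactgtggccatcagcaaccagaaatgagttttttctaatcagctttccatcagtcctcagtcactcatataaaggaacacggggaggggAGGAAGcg
Fev: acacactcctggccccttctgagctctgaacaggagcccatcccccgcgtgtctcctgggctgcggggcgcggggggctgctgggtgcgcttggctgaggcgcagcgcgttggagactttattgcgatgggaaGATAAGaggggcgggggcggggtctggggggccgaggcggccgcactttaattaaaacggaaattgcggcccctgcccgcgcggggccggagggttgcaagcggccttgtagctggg
Slc6a4: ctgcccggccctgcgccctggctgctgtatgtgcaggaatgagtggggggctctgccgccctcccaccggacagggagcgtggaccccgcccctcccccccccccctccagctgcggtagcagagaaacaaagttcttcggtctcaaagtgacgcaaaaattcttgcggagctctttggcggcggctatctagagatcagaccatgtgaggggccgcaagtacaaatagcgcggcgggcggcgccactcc
The Tph2 window held AGGAAG on the gene's strand at position -8 from the start, and 5 GGAA matches in all. The Fev window held GATAAG at position -117 and 2 GGAA matches, and the Slc6a4 window held 1 GGAA match and none of the longer letters. The Slc18a2 and Gch1 windows each held AGGAAG on the opposite strand, at positions -166 and -194. CGGAAG was in none of the 5. Of 32851 promoter windows of the same length, 93.4% held GGAA, 29.5% AGGAAG, 13.6% CGGAAG and 6.55% GATAAG, and a match is a description of letters only.

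Depth ranged from 27.6 to 64.9 M (mega) assigned reads over the 36 libraries, 34.3 to 44.1 in PAG sham and 27.6 to 39.7 in PAG SNI. Levels are RPKM, reads per kilobase of gene and per M assigned reads, so they can be compared between genes. Tissue markers followed the labels: in sham libraries the midbrain glutamate transporter gene Slc17a6 had 117 ± 5.42 RPKM in PAG, the cortical Slc17a7 had 473 ± 23.7 in PFC, and the striatal Drd2 had 90.8 ± 12.2 in NAc (SD, n = 6). Slc17a7 also ranged from 1.59 to 178 RPKM over the 12 NAc libraries. PAG sham and PAG SNI libraries differed in how levels moved with the GC content of genes. The slope of log2 level on GC, relative to the region mean, was -0.217 to -0.0246 per 10 points of GC in sham and 0.0359 to 0.218 in SNI, with no overlap.

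Across the brain regions, the serotonin neuron genes were PAG genes. Tph2 had 153 ± 24.1 RPKM in PAG sham against 0.210 ± 0.0556 in NAc sham and 0.257 ± 0.0492 in PFC sham (SD, n = 6), and Slc6a4 had 68.4 ± 12 against 0.0421 ± 0.00411 and 0.0653 ± 0.00854. Slc18a2 had 54.4 ± 6.43 RPKM in PAG sham, 1.95 ± 0.263 in NAc sham and 1.36 ± 0.152 in PFC sham. Gch1 had 7.81 ± 1.17, 0.320 ± 0.0596 and 0.260 ± 0.0523. Fev had 5.26 ± 0.991 RPKM in PAG sham and at most 3 reads in any forebrain library: it was at 0 reads in 7 of 12 NAc and in 6 of 12 PFC libraries. In every member the lowest PAG library, sham or SNI, lay above the highest of the 24 forebrain libraries. The share of all genes that did so was not counted, so this is a description of levels only. The order of levels within PAG sham was Tph2, Slc6a4, Slc18a2, Gch1, Fev. Slc6a4 and Slc18a2 overlapped over the 6 libraries, at 51.4 to 82.9 and 44.5 to 61.4 RPKM, as did Gch1 and Fev, at 5.84 to 9.21 and 3.45 to 6.47.

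**Figure D1:**
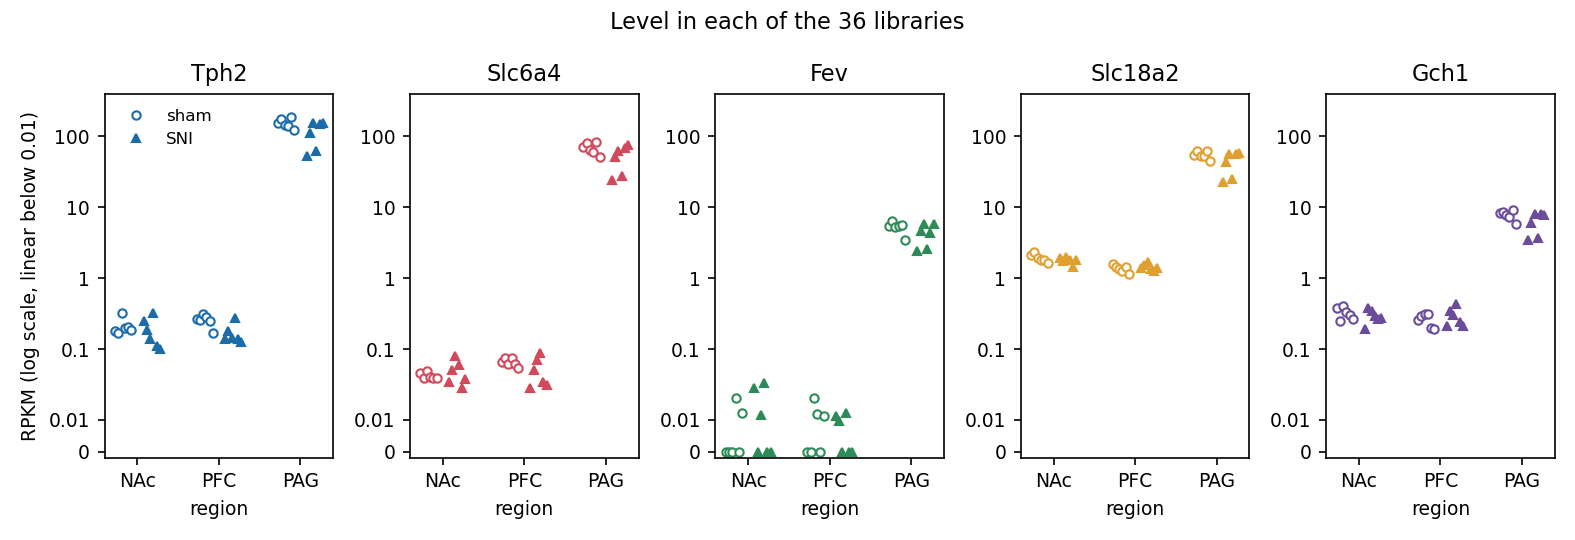
Level of each gene in every library, in RPKM on a log axis that turns linear below 0.01, by region; open circles are sham and filled triangles SNI libraries. For all 5 genes the 12 PAG libraries sit above all 24 forebrain libraries, and Slc18a2 alone stays above 1 RPKM in NAc and PFC.

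Summed reads give the size of that gap without a pseudocount. Per M reads, PAG sham held 724 times as much Tph2 as NAc sham (exact 95% interval 628 to 838, counting error only) and 586 times as much as PFC sham (514 to 671). For Slc6a4 the ratios were 1618 (1256 to 2119.9) and 1035 (841 to 1289). Fev rested on 1906 reads in PAG sham against 3 in NAc sham, a ratio of 887 (303 to 4306), and against 4 in PFC sham, a ratio of 632 (246 to 2321). The 2 genes that dopamine and other monoamine neurons share were closer: Slc18a2 was 27.7 times (26.6 to 28.9) the NAc level and 39.9 times (37.9 to 42.0) the PFC level, and Gch1 24.4 times (21.7 to 27.7) and 29.3 times (25.6 to 33.7).

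Regions were tested with limma on log2(RPKM + 0.5) in 1 model of the 36 libraries, over 15639 genes that averaged 0.5 RPKM or more, a scale that understates the change of low genes. All 5 members passed an adjusted p of 0.05 at 2-fold or more in sham PAG against sham NAc, where 6.42% of the genes tested were called and higher in PAG. All 5 also passed against sham PFC, where 7.35% were. The 5 genes passed the filter through their PAG level, so these counts carry no weight beyond the levels themselves. Tph2 differed by 7.74 from NAc (SE 0.17, limma adjusted p = 1.21e-28) and by 7.65 from PFC. Gch1 and Fev differed by 3.33 and 3.49 from NAc on the same log2 scale.

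Slc18a2 was the only member above 1 RPKM in the forebrain. It ranged from 1.64 to 2.36 RPKM in NAc sham and from 1.14 to 1.57 in PFC sham, so the groups did not overlap. The difference was 0.39 on the log2 scale (SE 0.15, limma adjusted p = 0.0288), a comparison chosen after the levels were seen. No member differed by 2-fold or more, where 6.85% of genes did. At any fold 59.0% of genes were called between these regions and 36.7% were called and higher in NAc, so 1 member called among 5 is not above that background. The call was lost with a pseudocount of 1 (adjusted p = 0.0656), with no filter (0.0508), with median-of-ratios scaling (0.0639), and without NAc sham 1, NAc sham 2, PFC sham 16 or PFC sham 18 (0.0515 to 0.0686). Tph2, Slc6a4, Gch1 and Fev entered this test only through PAG and lay below the pseudocount of 0.5 RPKM in every NAc and PFC library, so no call can be read for them between these regions.

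Within PAG the genes were followed library by library. Tph2, which marks serotonin synthesis, had 152, 176, 143, 139, 186 and 122 RPKM in sham 25 to 30, and 52.7, 110.2, 152, 62.2, 151 and 153 in SNI 31 to 36. SNI 31 and SNI 34 were the lowest of the 12, and the other 4 SNI libraries lay between 110.2 and 153, largely inside the sham range. Slc6a4, the uptake transporter, had 70.8, 80.2, 64.7, 60.3, 82.9 and 51.4 RPKM in sham and 24.3, 50.4, 62.8, 27.9, 67.3 and 75.9 in SNI. Again SNI 31 and SNI 34 were lowest, and the other SNI libraries ran from 50.4 to 75.9.

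Slc18a2, the vesicular transporter, had 55.2, 61.4, 52.0, 52.1, 61.3 and 44.5 RPKM in sham 25 to 30 and 22.9, 44.0, 56.9, 25.1, 56.7 and 57.6 in SNI 31 to 36. Gch1, the first enzyme of the cofactor pathway, had 8.17, 8.57, 7.71, 7.33, 9.21 and 5.84 RPKM in sham and 3.50, 6.01, 7.93, 3.67, 8.12 and 7.75 in SNI. In both genes SNI 31 and SNI 34 lay below all other PAG libraries, and sham 30 was the lowest of the sham group. Fev, the transcription factor, had 5.35, 6.47, 5.28, 5.40, 5.63 and 3.45 RPKM in sham and 2.42, 4.66, 5.70, 2.56, 4.32 and 5.79 in SNI. Its 2 lowest libraries were the same, and sham 30 was next. Sham and SNI overlapped in all 5 genes.

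**Figure D2:**
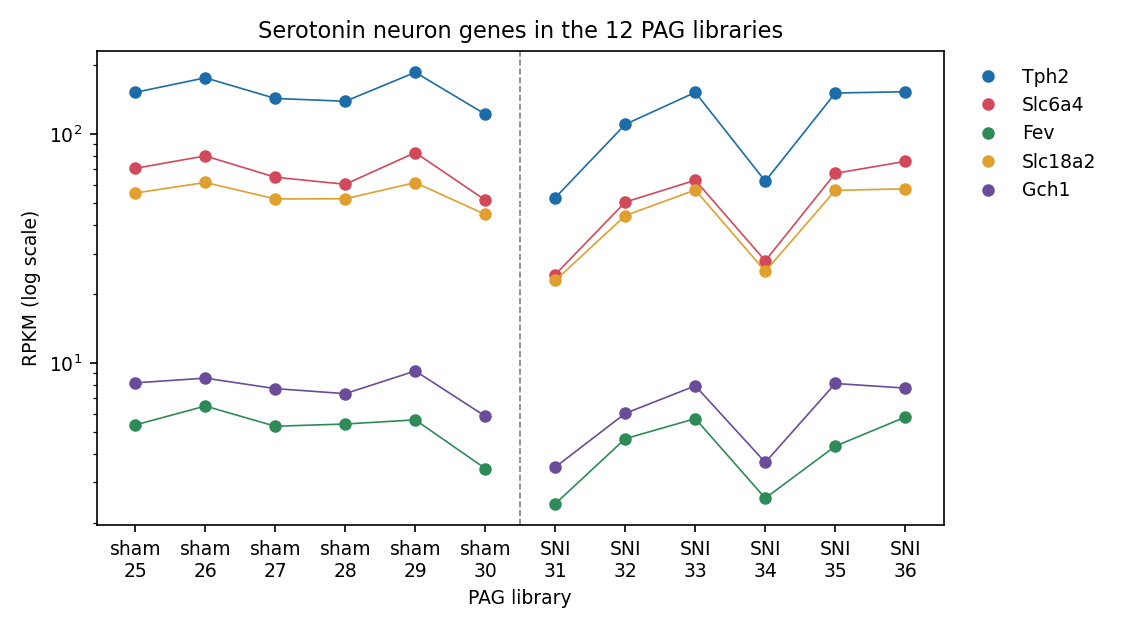
Level of the 5 genes in each PAG library, in RPKM on a log axis, sham on the left and SNI on the right; lines join the libraries of a group only to guide the eye, since replicates have no order. All 5 genes are lowest in SNI 31 and SNI 34, where Tph2 is at 52.7 and 62.2 RPKM.

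The coefficient of variation over libraries was larger in SNI than in sham for each gene: 40.8% against 15.8% for Tph2, 41.4% against 17.6% for Slc6a4, 37.0% against 11.8% for Slc18a2, 34.6% against 15% for Gch1 and 34.8% against 18.8% for Fev. This difference in spread was not tested. Reads per library ran from 6018 to 18974 for Tph2 and from 155 to 359 for Fev, whose counting error was thus 5.28% to 8.03%, below its spread in either group.

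Against the median of the other 10 PAG libraries, SNI 31 and SNI 34 held 34.9% and 41.2% of Tph2, 36.9% and 42.2% of Slc6a4, and 40.9% and 44.9% of Slc18a2. They held 44.6% and 46.8% of Gch1 and 45% and 47.5% of Fev. Of 15592 genes that averaged 0.5 RPKM or more in PAG, 458 (2.94%) were lower in both libraries than in all of the other 10, and 35 (0.224%) were below 50% of that median in both. The 35 included all 5 serotonin neuron genes. SNI 31 and SNI 34 were singled out by the levels of these same genes, so that count is not a test. Others of the 35, looked up after their values were seen, were Slc17a8, Slc22a3, Slc10a4, Htr5b, the cholinergic genes Chat and Slc5a7, the homeobox gene Lhx4, the pituitary hormone genes Gh and Prl, and small RNA, other noncoding, predicted or receptor segment genes. Neither library stood apart in depth, at 39.7 and 38.5 M reads, or in GC slope, at 0.132 and 0.114, inside the range of the other SNI libraries. In dissected tissue, fewer serotonin neurons in the piece and less of these transcripts per neuron cannot be told apart.

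The rest of the serotonin pathway was read from lists of related genes. Ddc, the decarboxylase that makes serotonin, was at 45% and 50.7% of the median in SNI 31 and SNI 34. Slc17a8, the vesicular glutamate transporter VGLUT3 that many dorsal raphe serotonin neurons carry, was at 23.7% and 33.9%. Maob, the monoamine oxidase found in serotonin neurons and glia, was at 61.1% and 63.0%. The factor Lmx1b, which serotonin neurons require, was at 62.9% and 68.8%, and the autoreceptor Htr1a at 74.6% and 79.7%. The factors Gata2 and Gata3, which serotonin neurons share with midbrain GABA neurons, were at 100.2% and 116% for Gata2 and 107% and 119.6% for Gata3. That median mixes sham and SNI, and both genes were higher in SNI: the other 4 SNI libraries had medians of 4.10 RPKM for Gata2 and 5.43 for Gata3, and SNI 31 and SNI 34 lay below them, at 3.23 and 3.74 for Gata2 and 4.56 and 5.10 for Gata3. Cofactor genes other than Gch1 went both ways against the mixed median, with Qdpr at 107% and 120.5%, Spr at 122% and 110.2%, Pts at 81.7% and 90.9%, Pcbd1 at 81.0% and 75.9%, and Gchfr, which encodes a regulator of the Gch1 enzyme, at 49.8% and 63.9%. Beside the median of the other 4 SNI libraries, Spr was at 21.4 and 19.2 RPKM against 20.1, and Pts at 16.6 and 18.5 against 18.1. Pcbd1 was at 24.9 and 23.3 against 27.1, Qdpr at 145 and 164 against 135, and Gchfr at 5.90 and 7.57 against 13.1.

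**Figure D3:**
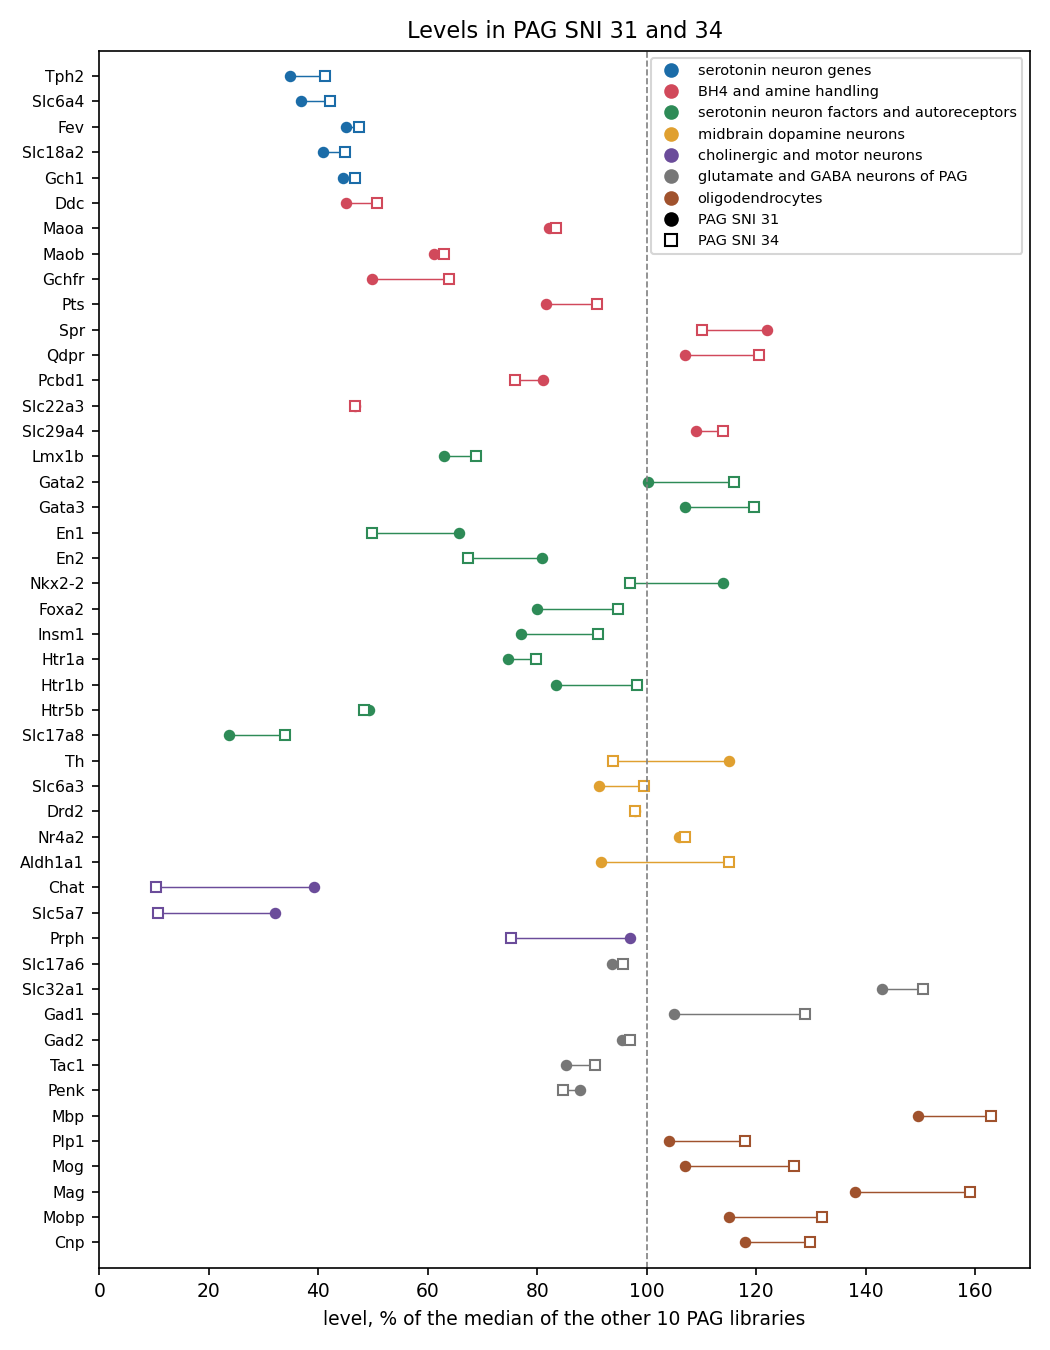
Level in SNI 31 (filled circles) and SNI 34 (open squares) as a percentage of the median of the other 10 PAG libraries, for the 5 genes and for genes of 6 related or neighbouring lists that passed the filter; the dashed line marks 100%. The serotonin neuron genes lie between 34.9% and 47.5%, while genes of the other lists spread from 10.4% for Chat to 163% for Mbp.

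Markers of other cell types did not all move alike in these 2 libraries. Of the midbrain dopamine neuron list, Th, tyrosine hydroxylase, was at 115% and 93.8%, Slc6a3, the dopamine transporter, at 91.3% and 99.5%, and Drd2, Nr4a2 and Aldh1a1 at 91.7% to 115%. Ddc, which dopamine neurons share with serotonin neurons, is also on that list and was the low member. Against the other 4 SNI libraries, with a median of 9.78 RPKM, Th was at 9.34 in SNI 31 and 7.62 in SNI 34. The glutamate and GABA neuron list of PAG summed to 382 and 401 RPKM, inside the 369.6 to 418 of all PAG libraries, but its members differed: Slc17a6 was at 93.7% and 95.6% of the median, Slc32a1, the vesicular GABA transporter, at 143% and 150.5%, and Gad1 at 105% and 129%. Chat was at 39.3% and 10.4% of the median and Slc5a7 at 32.1% and 10.7%. Beside the median of the other 4 SNI libraries, Chat was at 1.36 and 0.361 RPKM against 2.53. Slc5a7 was at 2.63 and 0.874 against 6.11. Prph, of the same list, was at 96.9% and 75.2%, and Isl1, below the filter, at 52.3% and 38.2%. The 4 cholinergic and motor neuron markers in the table summed to 8.02 and 4.36 RPKM, against 11.9 to 32.3 in sham and 4.36 to 21.8 in SNI. Low cholinergic levels were not limited to these 2 libraries: SNI 33, with Tph2 at 152 RPKM, had Chat at 1.70 and Slc5a7 at 3.19. The 6 oligodendrocyte markers summed to 1496 and 1688 RPKM, against 1157 to 1336 in sham and 1228 to 1688 in SNI. The 3 noradrenaline markers summed to 2.71 RPKM in SNI 31, the highest of the PAG libraries, and to 0.0597 in SNI 34, with Phox2a below 0.5 RPKM in all of them. The part of these other cell types in the serotonin values was not tested.

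How far the genes move together was measured over the 12 PAG libraries on log2(RPKM + 0.5), each gene centred on its group mean so that a difference between sham and SNI does not enter. All 10 pairs had Pearson r between 0.912 and 0.996, with a median of 0.985, and all 10 passed 0.05 after adjustment over the 10 pairs (permutation test, 100000 resamples, two-sided, highest adjusted p = 0.000160). The 6 pairs among Tph2, Slc6a4, Slc18a2 and Gch1 ran from 0.984 to 0.996, and the 4 pairs with Fev from 0.912 to 0.923. Tph2 and Slc18a2 were closest, with r = 0.996 (permutation p = 1e-05, the smallest these resamples can give, adjusted p = 1.67e-05) and Spearman's rho = 0.986 (permutation p = 1e-05). Tph2 and Slc6a4 had r = 0.991 and rho = 0.993, with the same permutation p. Tph2 and Fev, the loosest pair, had r = 0.912 (permutation p = 5.00e-05, adjusted p = 6.25e-05) and rho = 0.916 (permutation p = 9.00e-05).

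SNI 31 and SNI 34 were the libraries farthest from the median for every pair. Without them and with the same centring, r was 0.992 for Tph2 and Slc18a2, 0.975 for Tph2 and Slc6a4, 0.973 for Tph2 and Gch1, and 0.794 for Tph2 and Fev. Because they sit apart from the rest, the 10 other libraries were also centred anew: r then ran from 0.684 to 0.986 with a median of 0.941, and all 10 pairs still passed (highest permutation p = 0.0254, adjusted p = 0.0254). The 0.684 was that of Tph2 and Fev. In the 6 sham libraries alone r was 0.810 to 0.988, and in the 6 SNI libraries alone 0.938 to 0.999. Removing the GC slope as well left 0.912 to 0.997.

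**Figure D4:**
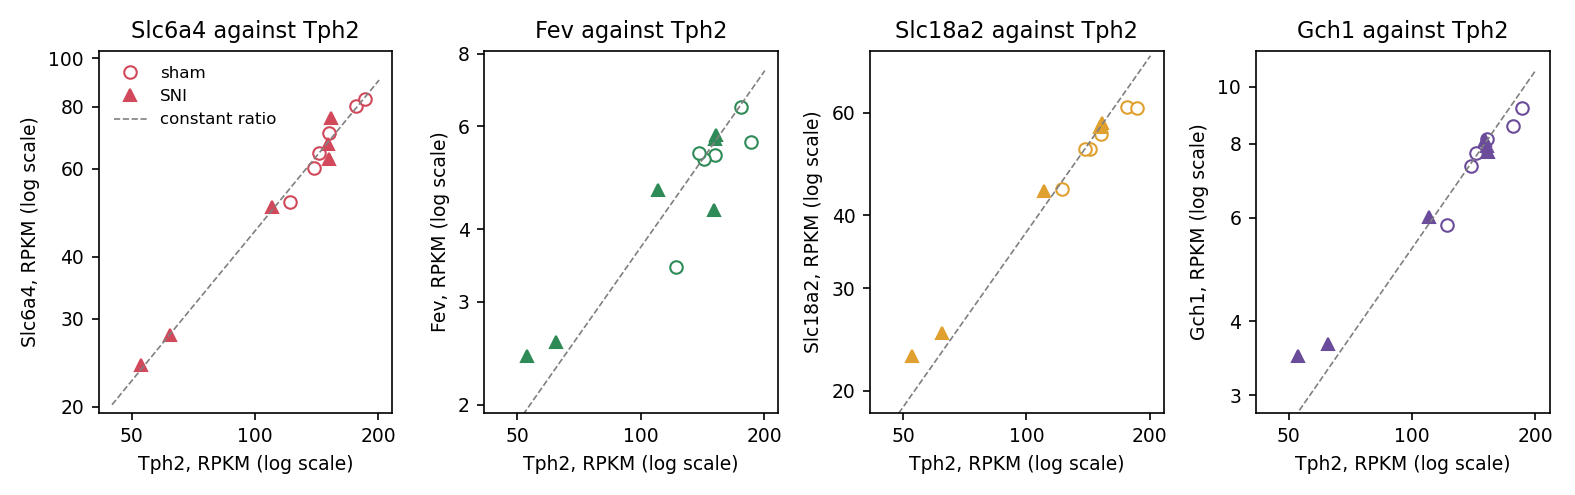
Level of Slc6a4, Fev, Slc18a2 and Gch1 against Tph2 in the 12 PAG libraries, in RPKM on log axes, with sham as open circles and SNI as triangles; the dashed line is the median ratio to Tph2. Slc6a4 follows the line, at 41.4% to 49.6% of Tph2, while Fev scatters more, at 2.84% to 4.59%.

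The ratios to Tph2 were steadier than the levels. Slc6a4 was 41.4% to 49.6% of the Tph2 RPKM over the 12 libraries, a coefficient of variation of 4.71% against 31.2% for its level, and the ratio varied 1.20-fold where the level varied 3.41-fold. Slc18a2 was 32.9% to 43.4% of Tph2 (7.17% against 26.4%) and Gch1 4.80% to 6.64% (9.35% against 26.5%). Fev was 2.84% to 4.59% of Tph2 (14.7% against 27.6%). For Slc18a2, Gch1 and Fev the highest ratio was that of SNI 31, 43.4%, 6.64% and 4.59%. The slope of log2 level on log2 Tph2, on the centred values, was 0.998 for Slc6a4, 0.868 for Slc18a2, 0.756 for Gch1 and 0.706 for Fev. Slc6a4 thus moved in proportion to Tph2, and the other genes varied less than Tph2. Th, by contrast, was 4.27% to 17.7% of Tph2, with a coefficient of variation of 53.2%.

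Against all other genes in PAG, the members were each other's close company. Ranked by r with Tph2 among 15591 genes, Slc18a2 was 1, Slc6a4 3, Gch1 4 and Fev 21, while the median r of all genes with Tph2 was 0.0362 and 26 genes (0.167%) reached 0.9. These ranks are a description over 12 libraries that share tissue and sequencing. Outside the members, the genes most like Tph2 were Ddc (r = 0.993), Maob (0.976), Tnfrsf8 (0.970), Slc17a8 (0.968), Slc22a3 (0.967), Slc10a4 (0.965), Calcr (0.941) and Irs4 (0.928). Slc22a3 encodes a low-affinity monoamine transporter and Slc10a4 a protein of monoaminergic and cholinergic vesicles. Tnfrsf8 was among the 8 most alike genes of all 5 members, and Ddc, Maob, Slc10a4, Slc17a8 and Slc22a3 were among those of 4, all but Fev.

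Fev kept partly other company: 12 genes (0.0770%) reached r = 0.9 with it. Its closest genes were Tnfrsf8 (r = 0.945), Fbxl14 (0.942), Rasgrp1 (0.929) and Gnas (0.927), followed outside the members by Pcdh20 (0.923), the midbrain and hindbrain homeobox gene En2 (0.921), the autoreceptor Htr1a (0.916) and Cdyl2 (0.901). Slc18a2, Gch1, Slc6a4 and Tph2 ranked 5, 6, 8 and 11 for Fev. Fev had the fewest reads of the members, 155 to 359 per PAG library. Its counting error was 5.28% to 8.03%, against 0.726% to 1.29% for Tph2. Counting error lowers r, and its part in the lower values of Fev was not tested. Lmx1b had r = 0.923 with Tph2 and ranked 15. Of the dopamine neuron list, Ddc, shared with serotonin neurons, ranked 2 for Tph2, while Th had r = 0.456 and Slc6a3 0.324. Gata2 and Gata3 had r = 0.612 and 0.740. Also further off were Maoa at 0.372 and the cofactor recycling gene Qdpr at -0.466. Chat and Slc5a7, which were also low in SNI 31 and SNI 34, had r = 0.691 and 0.725.

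None of the 5 genes passed the test of SNI against sham in PAG, where 35.2% of 15592 genes were called, 21.5% higher and 13.7% lower in SNI. All 5 estimates were below 0. Tph2 had 113 ± 46.3 RPKM in SNI against 153 ± 24.1 in sham (SD, n = 6), a difference of -0.54 on the log2(RPKM + 0.5) scale (SE 0.25, 95% interval -1.09 to 0.0057, limma adjusted p = 0.112). Slc6a4 had 51.4 ± 21.3 against 68.4 ± 12 RPKM, a difference of -0.51 (interval -1.06 to 0.038, limma adjusted p = 0.134). The differences were -0.40 for Slc18a2 (43.9 ± 16.2 against 54.4 ± 6.43 RPKM), -0.38 for Gch1 (6.16 ± 2.14 against 7.81 ± 1.17) and -0.33 for Fev (4.24 ± 1.48 against 5.26 ± 0.991). Their limma adjusted p-values were 0.176, 0.149 and 0.213.

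These differences rested on SNI 31 and SNI 34. Without both, Tph2 differed by -0.11 (SE 0.12, limma adjusted p = 0.526), Slc6a4 by -0.089, Gch1 by -0.059, Fev by -0.026 and Slc18a2 by -0.017, and 3866 genes were called. SNI 31 and SNI 34 are the lowest PAG libraries of these genes, so leaving them out had to raise each of the 5 estimates. Leaving out SNI 31 alone moved Tph2 to -0.34 and Slc18a2 to -0.23. In 1 model of all 36 libraries the same differences had smaller errors, 0.17 for Tph2, and 3 members passed: Tph2 (limma adjusted p = 0.0288), Slc6a4 (0.0303) and Gch1 (0.0499), beside 21.3% of genes. That model takes 1 error for all groups, and the 5 genes are at most 2.36 RPKM in 24 of its libraries. The GC slope does not overlap between PAG sham and SNI, so surgery and that slope cannot be told apart in PAG. With the slope as a covariate no gene was called and the Tph2 estimate was -0.56 (SE 0.61, limma adjusted p = 0.790).

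**Figure D5:**
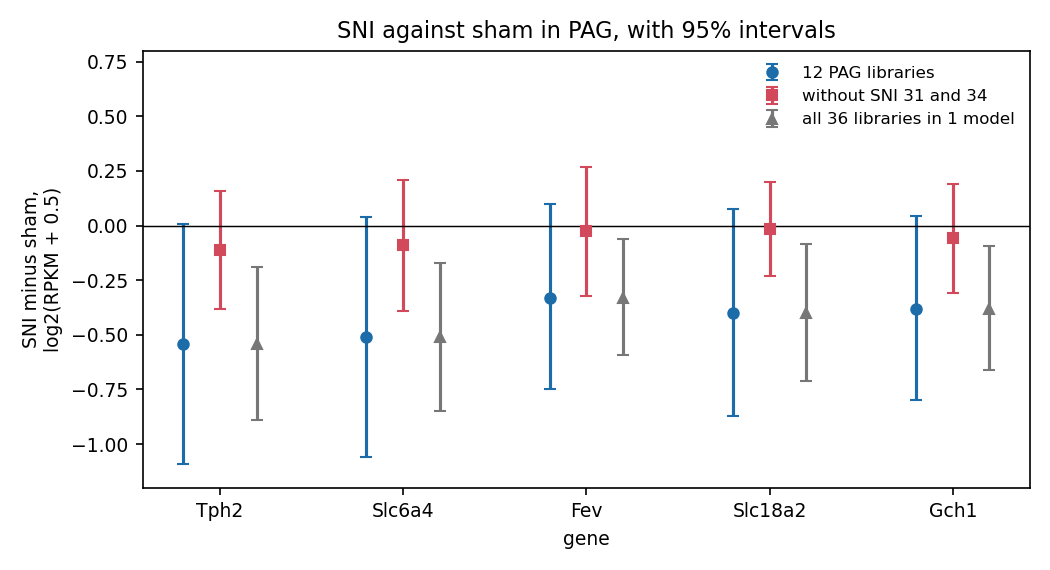
Difference of SNI from sham in PAG for each gene on the log2(RPKM + 0.5) scale, with 95% intervals from limma: circles are the 12 PAG libraries, squares the 10 without SNI 31 and SNI 34, triangles 1 model of all 36 libraries. Tph2 is at -0.54 over the 12 libraries and at -0.11 without the pair, the lowest PAG libraries of these genes.

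The wider serotonin lists were read against the 35.2% of all genes called after SNI in PAG, 21.5% higher and 13.7% lower. Of 11 genes of tetrahydrobiopterin and amine handling, 10 were tested: 1 was called higher, 3 lower, and the median difference was -0.21 against -0.019 over all genes, a share of calls near the background. The cofactor enzyme gene Spr rose by 0.32 (limma adjusted p = 0.00101). Pcbd1, which recycles the cofactor, fell by 0.26 (limma adjusted p = 0.00461), Maoa, the oxidase that degrades serotonin, fell by 0.22 (0.00985), and the cofactor synthesis gene Pts fell by 0.20 (0.0204). Without both SNI 31 and SNI 34, Maoa and Pts no longer passed (limma adjusted p = 0.0617 and 0.0838), and in 1 model of all 36 libraries Pcbd1 did not (0.0519). Ddc differed by -0.30 without passing (limma adjusted p = 0.261). Tph1, the peripheral form of the hydroxylase, was at most 0.152 RPKM in PAG and was not tested.

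Of 12 genes for serotonin neuron factors and autoreceptors, 2 were called higher, none lower, a share below that background, and the median difference was -0.040. Gata2 rose by 0.37 (limma adjusted p = 0.00619) and Gata3 by 0.35 (0.00136). Lmx1b had a difference of 0.10, En1 -0.040, Htr1a -0.097 and Slc17a8 -0.74, none of which passed (limma adjusted p = 0.638, 0.869, 0.399 and 0.0679). Slc17a8 passed by voom (adjusted p = 0.0285), in 1 model of all 36 libraries (0.0163), with quantile scaling (0.0445), and without SNI 33, SNI 35 or SNI 36 (0.0326 to 0.0498). Over the dopamine neuron list none of 6 genes tested was called. Of 3 cholinergic genes tested, Slc5a7 was called lower, at -1.36 (limma adjusted p = 0.0245), and Chat had -0.93 (0.0540). The Slc5a7 call was lost without sham 29 (limma adjusted p = 0.0553) or SNI 31 (0.0529), without both SNI 31 and SNI 34 (0.0961), and with no filter (0.0618), and Chat passed by voom (0.0247), in 1 model of all 36 libraries (0.0126), with quantile scaling (0.0344), with a filter of 2 RPKM (0.0423), and without sham 28 (0.0400) or SNI 36 (0.0142). Mbp, the myelin basic protein gene of oligodendrocytes, rose by 0.60 (limma adjusted p = 9.69e-05); in 1 model of all 36 libraries the estimate was the same 0.60 but did not pass (0.122). None of these calls held with the GC slope as a covariate.

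In NAc and PFC only Slc18a2 passed the filter for the SNI test. It had 1.78 ± 0.198 RPKM in NAc SNI against 1.95 ± 0.263 in sham (SD, n = 6), a difference of -0.10 (SE 0.082, limma adjusted p = 0.780), where 0% of 15264 genes were called (660 at an unadjusted p under 0.05 by limma, and 0 called by voom, limma's method for counts). In PFC it had 1.43 ± 0.160 against 1.36 ± 0.152 RPKM, a difference of 0.056 (SE 0.073, limma adjusted p = 1.0), with 0% of 15192 genes called (220 at an unadjusted p under 0.05, and 0 by voom). Tph2 ranged from 0.10 to 0.321 RPKM over the NAc libraries and from 0.125 to 0.315 over PFC, on 10 to 55 reads, and Slc6a4 from 0.0283 to 0.0892 on 4 to 20 reads. In PFC, Tph2 had 0.166 ± 0.0556 RPKM in SNI against 0.257 ± 0.0492 in sham (SD, n = 6). With no filter on low values, where 0 genes were called in either region, that difference was -0.19 (SE 0.060, limma adjusted p = 1.0). Tph2 in NAc differed by -0.059 (adjusted p = 0.852), and Slc6a4, Fev and Gch1 by -0.051 to 0.053 in both regions, none past the threshold.

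The SNI effect in PAG was set against that in each forebrain region as a difference of differences, which shares the PAG libraries between both. Outside PAG, all members but Slc18a2 lie below the pseudocount, which shrinks their forebrain differences. For Slc6a4, Fev and Gch1, and for Tph2 against NAc, the value thus largely restates the PAG difference. Against PFC the Tph2 value also takes in its PFC difference, -0.19 with no filter. None of the 5 genes passed, and 0% of 15639 genes did (1405 against NAc and 2779 against PFC at an unadjusted p under 0.05; voom was not run on this contrast). Tph2 gave -0.48 against NAc (95% interval -0.98 to 0.020, limma adjusted p = 0.578) and -0.35 against PFC (-0.85 to 0.15, adjusted p = 0.430). The other 4 genes gave -0.53 to -0.30 against NAc and -0.47 to -0.32 against PFC, with adjusted p-values of 0.253 to 0.680.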

How the data were processed

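Polyadenylated RNA was sequenced in 36 libraries, and the authors deposited RPKM values and gene lengths for 31554 genes. Tools named in the submitters' processing notes were HTSeq and TopHat2, on mm10 (versions, settings and strand: not given in the sources used here), so overlapping genes are uncertain. Multiplied by length and depth, 100.0% of values gave whole reads (tolerance 0.001), which recovered the depth. No libraries were copies: over 90 pairs within groups, chi-square divided by its degrees of freedom was at least 3.89.

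Tests used limma 3.58.1 in R 4.3.3 with a mean-variance trend, on log2(RPKM + 0.5) of genes averaging 0.5 RPKM or more, with Benjamini-Hochberg adjustment over all genes, a threshold of 0.05 and two-sided tests. SNI comparisons used the 12 libraries of a region; regions and differences of effects used 1 model of 36. GC content came from GENCODE M21 (97.9% of identifiers matched). Both scripts that test many genes or pairs were tested on simulated data. For each member, the 8 genes of highest r outside the members and predicted genes were named. The members and lists were chosen with earlier results of these data known; some list genes are not reported here. Voom on recovered reads, quantile scaling, leaving out SNI 31 and SNI 34 together, and sham NAc against sham PFC were added after seeing the data. Promoters are RefSeq's (GRCm38.p6), matched for 5 of 5 members.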

Additional observations from a re-analysis of the deposited data

Results flagged for a closer look

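Over the 30 sets of 1 gene in 1 group of 6 libraries, 2 had a library far from the other 5; chance alone gives about 1 in 20 such sets. Tph2 had 0.321 RPKM in NAc sham 3, on 46 reads, against 0.169 to 0.207 in the other 5 NAc sham libraries. Tph2 had 0.274 RPKM in PFC SNI 22, on 39 reads, against 0.125 to 0.177 in the other 5 PFC SNI libraries. Both values are under 1% of the lowest PAG level, 52.7 RPKM. SNI 31 and SNI 34 did not meet this criterion in PAG, because each lies near the other.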

How the results depend on the processing

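In PAG, 5495 genes passed for SNI against sham and no member did. With the GC slope as a covariate 0 genes passed, and 3 genes of the amine list turned sign: Pcbd1 to 0.023, Maoa to 0.11 and Pts to 0.10; in 1 model of all 36 libraries 3337 genes and 3 members passed, Tph2, Slc6a4 and Gch1, with the same estimates and smaller errors. Of the called genes 61.1% were higher in SNI, but 55.8% of 5838 with median-of-ratios scaling and 42.1% of 6942 with quantile scaling. Voom called 5657 genes and no member. Leaving out 1 library gave 4234 to 6529 genes and 0 members; Tph2 then ran from -0.65 to -0.34. In NAc, 0 to 3 genes passed, the 3 without NAc SNI 7. Without both SNI 31 and SNI 34, 2 differences of effects turned sign: Slc18a2 in PAG minus NAc was 0.085 and Tph2 in PAG minus PFC 0.074, neither past the threshold; that alternative leaves out the 2 lowest PAG libraries. The region calls of all 5 genes kept their direction and side under every alternative in which they were tested; with a filter of 2 RPKM Fev was not tested. All 10 pairs of genes passed in each of the alternatives and without each library. The planned quasi-likelihood count test was not run, because the deposited values are RPKM. No paired analysis was possible because the labels do not say whether libraries of different regions came from the same mice. The models of all 36 libraries treated the regions as independent. Fev, on 0 to 3 reads per forebrain library, is the member that depth limits most.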
